A study of Homo sapiens with 7 samples.

Results

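The isolated hormone-only sites are 925 places on the genome of THP-1 cells where the vitamin D receptor (VDR) gave a peak in both hormone libraries used to choose them and in no solvent library, far from any place where it gave a peak in every library used. THP-1 is a human monocytic cell line that was established from a patient with acute leukaemia. Cells were treated for 8 h with 100 nM 1α,25-dihydroxyvitamin D3, called 1,25D here, or with the solvent, 0.1% ethanol (EtOH), with 3 libraries per treatment. VDR-bound DNA was recovered with an antibody by ChIPmentation, in which adapters are put onto the immunoprecipitated chromatin by a transposase. No genetic change is named in the labels, which also do not say whether the replicates were separate cultures, so the spread between libraries may be technical. Members were chosen from 5 peak lists, those of 1,25D replicates 1 and 3 and of EtOH replicates 1 to 3, over chromosomes 1, 10 to 22, 2, 3 and 4 and the start of chromosome 5 up to 90175161. Peaks sharing at least 1 bp were merged into 50857 sites. A hormone-only site has a peak in both of these 1,25D lists and in no EtOH list (1204 sites, 2.37% of all), and a persistent site has a peak in all 5 lists (612 sites). An isolated hormone-only site is one whose centre lies over 200 kb from the centre of every persistent site. This held for 925 of the 1204 hormone-only sites, and the other 279 lay closer.

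VDR is a nuclear receptor that binds DNA mostly as a heterodimer with the retinoid X receptor, on pairs of hexamer half-sites known as vitamin D response elements. In monocytes and macrophages 1,25D is known as a regulator of innate immune and differentiation genes, and VDR can act over long distances along the chromosome. Ligand raises the number of sites that VDR occupies, while some sites are occupied without added ligand. Studies of this receptor have called sites of the latter kind persistent.

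The lists held 8620 to 21369 peaks each over the range compared, with EtOH replicate 2 the longest. They gave the authors' fold enrichment over background and p-value for each peak, but no read counts, so the depth behind a peak is unknown. The weakest listed p was 0.00433 in 1,25D replicate 1 and 0.00431 in EtOH replicate 1, and 0.00978 to 0.00997 in the other lists, so both replicates 1 were listed to a stricter limit. The list of 1,25D replicate 2 ended on chromosome 16 at 50293713 as used here. It took no part in choosing the members, and 440 of the 925 lay in the stretch that it covers, called the first part below. Positions are those of the lists, in hg19. No annotation or sequence of that build was used here, so sites are given by position, without gene names or bases.

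Isolation was the usual state of a site in these lists. Of the hormone-only sites 76.8% were isolated, while 85.9% of all 50857 sites lay over 200 kb from a persistent site. The same share was 85.5% for the 11333 sites of 1 1,25D list alone, 88.3% for the 35356 sites of 1 EtOH list alone and 79.6% for the 927 sites in both 1,25D lists and 1 or 2 EtOH lists. Over all sites of 1 list it was 87.6%. The isolated share of the hormone-only sites was therefore below that of sites in general. Since the rule itself used this distance, the shares are a description. With the limit set at 100 kb it was 84.4% (1016 sites) and at 500 kb it was 60.6% (730 sites).

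The members' distance from a persistent site had a median of 1229 kb, with quartiles of 572 and 2700 kb. A total of 195 members lay at 200 to 500 kb, 196 at 500 to 1000 kb, 222 at 1 to 2 Mb, 228 at 2 to 5 Mb and 84 further still. The members' fold was similar at all distances. The median fold in 1,25D replicate 1 was 4.74, 4.33, 4.77, 4.67 and 4.81 over these 5 classes of distance, and in replicate 3 it was 4.53, 4.53, 4.81, 4.53 and 5.19. Spearman's rho between mean fold and distance was 0.063 over the 925 members, which share their libraries, so no p is given.

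The most remote members were on chromosome 4. The site at 37972283 to 37972601 lay 16.2 Mb from the nearest persistent site and had a fold of 7.21 in 1,25D replicate 1 and 5.6 in replicate 3. The site at 40234255 to 40234570 lay 14.2 Mb away, with folds of 6.61 and 10.3, and an EtOH peak began or ended 0.472 kb from it. On chromosome 5 the site at 1165053 to 1165344 lay 11.3 Mb away, with folds of 4.52 and 5.28, and had no EtOH peak within 132 kb. All 3 were above the members' median fold of 4.66 in replicate 3, and in replicate 1 the chromosome 5 site was below the median of 4.69.

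The members just beyond the 200 kb limit lay on chromosome 4 at 139922738 to 139922923 and on chromosome 16 at 54104957 to 54105360. In 1,25D replicate 1 they had folds of 4.21 and 4.77, and in replicate 3 of 3.09 and 3.28. The hormone-only sites just within it, both 198 kb from a persistent site, were on chromosome 13 at 49357463 to 49357800 and chromosome 2 at 231083945 to 231084316. Their folds were 4.21 and 3.18 in replicate 1 and 4.83 and 5.76 in replicate 3.

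Most members were of modest height beside all sites with a peak in both 1,25D lists, and a few were strong. Among all sites of each list, the median member stood at percentile 76.2 in replicate 1 and 74.9 in replicate 3. The leading member by mean percentile was found on chromosome 20, from 34791864 to 34792488, with a fold of 19.5 in 1,25D replicate 1 and 18.5 in replicate 3 (19 ± 0.686, mean ± SD, n = 2). The second was on chromosome 12 at 102248448 to 102249018, with 19.7, 17.1 and 16.7 in replicates 1 to 3 (17.8 ± 1.6, n = 3). Next came chromosome 3 at 48595949 to 48596566, with 12.7 and 14.4 in replicates 1 and 3. All 3 stood at percentile 97.2 or higher in both lists, with p-values between 1.99e-47 and 3.69e-26 in 1,25D replicate 1.

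The other leading members ran as follows. Chromosome 11 at 33915192 to 33915787 had folds of 15.6, 14.1 and 12.8 in replicates 1 to 3. On chromosome 3 at 124318223 to 124318838 the folds in replicates 1 and 3 were 12 and 14.2, and on chromosome 4 at 25882653 to 25883410 they were 11.4 and 13.5. The site on chromosome 4 stood 4.11 Mb from the nearest persistent site, the furthest of the 10. Chromosome 1 held 2 of them, at 234658194 to 234658694 with folds of 9.88, 10.4 and 17.1 in replicates 1 to 3, and at 233463107 to 233463481 with 10.3, 10.7 and 14.4. In both, replicate 3 was the highest. The list was completed by chromosome 12 at 4322495 to 4322931, with 10.2, 10 and 13.9 in replicates 1 to 3, and chromosome 2 at 46111296 to 46111813, with 10.2 and 13.1 in replicates 1 and 3. All 5 of the leading members that 1,25D replicate 2 covers had a fold of 10 or more there.

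**Figure D1:**
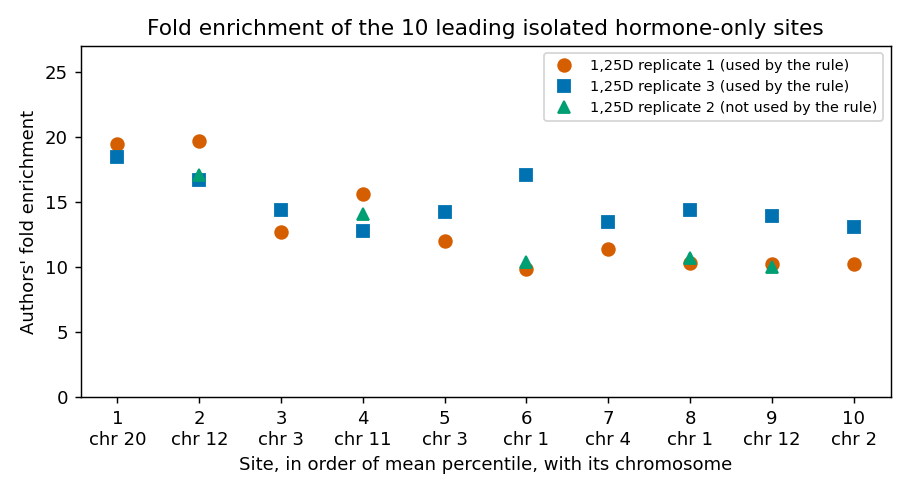
Authors' fold enrichment (vertical axis) of the 10 isolated hormone-only sites with the highest mean within-list percentile, in order along the horizontal axis, with 1 point per 1,25D library that covers the site. The second site has folds of 19.7, 17.1 and 16.7, and replicate 2, which did not choose the sites, gives a point at each of the 5 sites that it covers.

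Over all 925 members the fold in 1,25D replicate 1 ran from 2.2 to 19.7 with a median of 4.69 (quartiles 3.9 and 5.84). In replicate 3 it ran from 2.37 to 18.5 with a median of 4.66 (quartiles 3.81 and 6.07). A fold of 5 or more in both lists was reached by 222 members (24%), against 44.5% of the 2743 sites with a peak in both 1,25D lists, and a fold of 10 or more in both by 11 members (1.19%), against 13.1%. Hormone-only sites within 200 kb of a persistent site had medians of 4.24 and 4.71, and 22.9% of them reached a fold of 5 in both lists. Sites with a peak in 1 or 2 EtOH lists had medians of 5.41 and 5.96, and persistent sites 9.07 and 10.3. Isolated members thus sat beside the nearer hormone-only sites and below both classes with EtOH peaks. These folds are from the lists that chose the sites and are given without a test. The weakest member by percentile, on chromosome 1 at 163828440 to 163828852, had folds of 2.91, 2.86 and 2.6 in 1,25D replicates 1 to 3.

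The order of the members by fold was held only in part between libraries. Spearman's rho between 1,25D replicates 1 and 3 was 0.457 over the 925 members, 0.503 over the 279 nearer hormone-only sites, 0.715 over the 927 sites with 1 or 2 EtOH peaks and 0.906 over the 612 persistent sites. The classes differ in the range of fold that they span, which these coefficients share. At 38 members (4.11%) the larger of both folds was over 2 times the smaller. The same share is not given here for other classes, so this one is not read as high or low. Replicate 1 was higher at 444 members and replicate 3 at 481. The folds were also stepped, with 240 distinct values in replicate 1 and 86 members at a fold of 4.21 alone.

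**Figure D2:**
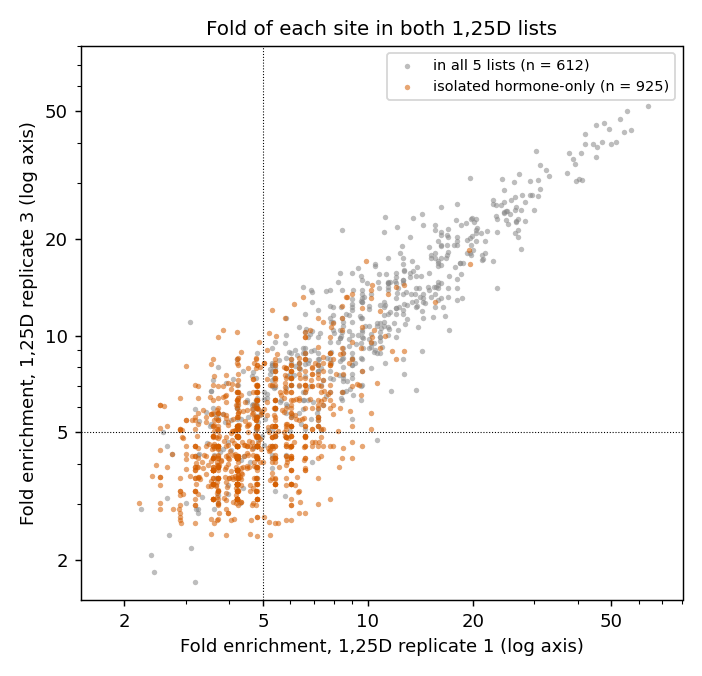
Fold enrichment of each site in 1,25D replicate 1 (horizontal, log axis) against replicate 3 (vertical, log axis), with isolated hormone-only sites and persistent sites as separate colours and dotted lines at a fold of 5. The isolated sites fill the low corner, with medians of 4.69 and 4.66, and the persistent sites extend to 63.8 and 51.9.

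Member peaks were narrow, as were those of the nearer hormone-only sites. The merged sites had a median length of 347 bp (quartiles 281 and 436), against 321 bp for the nearer hormone-only sites, 475 bp for sites with 1 or 2 EtOH peaks and 730 bp for persistent sites, which merge more lists. Within 1,25D replicate 1 alone the members' peaks had a median of 234 bp and those of persistent sites 492 bp, and in replicate 3 the medians were 294 and 589 bp. In replicates 1 and 3 the medians were 225 and 270 bp at the nearer hormone-only sites. At sites with 1 or 2 EtOH peaks they were 309 and 390 bp. A p-value of 1e-10 or less was listed for 14.5% of the members' peaks in replicate 1 and 21.1% in replicate 3, and for 63.2% and 73.2% of those at persistent sites. The shares were 11.9% and 19.4% at the nearer hormone-only sites and 34.2% and 41.8% at sites with 1 or 2 EtOH peaks. The members' median p was 5.19e-07 and 1.13e-06 in these lists. At 25 members a list held more than 1 peak within the site.

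Most members were found again in the library that had not chosen them. Of the 440 members in the first part, 379 had a peak in the list of 1,25D replicate 2, or 86.1% (exact 95% binomial interval 82.6% to 89.2%, which covers counting error only). Over all 27600 sites of the first part the share was 7.86%. The nearer hormone-only sites were found at 86.9% (80% to 92%, 119 of 137), so the intervals of both kinds overlapped. Sites with 1 or 2 EtOH peaks were found at 92.9% and persistent sites at 99%, while sites of 1 1,25D list alone were found at 9.85% and sites of 1 EtOH list alone at 0.769%. Sites of 1 cell line are not replicates, and no test across sites was run.

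Among the members the share found again rose with height and reached 100% at a fold of 6. In the first part, 3 of the 6 members with a mean fold under 3 were found, against 10 of 12 nearer hormone-only sites (83.3%). Most of these nearer sites lay together on a stretch of chromosome 1 with many weak sites, so their share largely describes that stretch. Members with a mean fold of 3 to 4 in replicates 1 and 3 were found in replicate 2 at 67.9% (76 of 112), those of 4 to 5 at 86.7% (130 of 150) and those of 5 to 6 at 97.4% (75 of 77). All 67 members of fold 6 to 8, all 23 of fold 8 to 12 and all 5 above were found. The nearer hormone-only sites gave 61.3%, 92.5% and 95.5% in the classes from 3 to 6 and 100% above, each on fewer sites, and the intervals of both kinds overlapped in every class that held both.

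**Figure D3:**
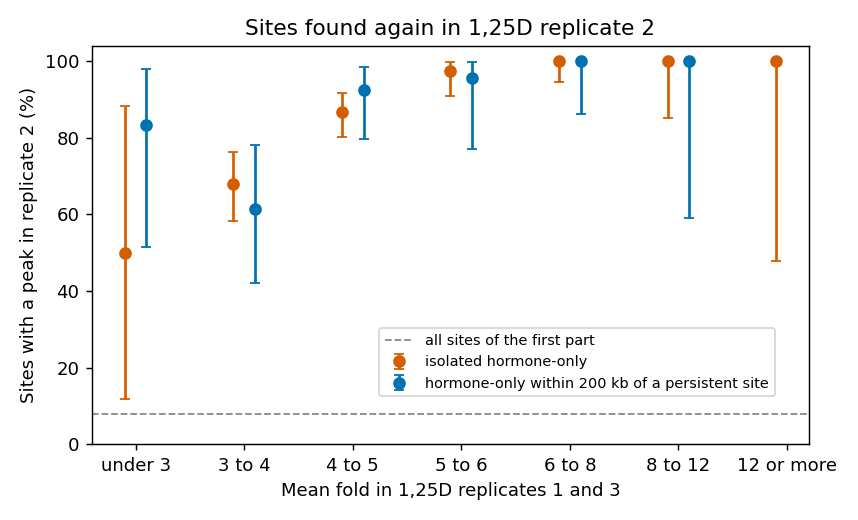
Share of sites with a peak in 1,25D replicate 2 (vertical axis, %) by mean fold in replicates 1 and 3 (horizontal axis), for isolated hormone-only sites and for those within 200 kb of a persistent site, with exact 95% binomial intervals. The dashed line is the 7.86% of all sites in the first part, and the isolated sites rise from 67.9% at a fold of 3 to 4 to 100% at 6 and more.

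Only 2 members with a mean fold of 5 or more had no replicate 2 peak, and they are named here after their values were seen. On chromosome 16 at 3314194 to 3314446 the folds were 4.21 and 6.68 in replicates 1 and 3, and the nearest replicate 2 peak was 100 kb away. On chromosome 10 at 7526918 to 7527338 they were 4.81 and 5.25, with the nearest peak 12.6 kb away. Among the members missed below that fold, 2 on chromosome 12, at 116627354 and 105627145, had a replicate 2 peak 0.267 and 0.157 kb away. Within 500 bp the share found was 87.3%.

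The members' heights were of similar size in replicate 2, while their order was kept in part. The 379 members listed there had folds from 2.36 to 17.1 with a median of 4.8 (quartiles 4.04 and 6.18). Over these, Spearman's rho with replicate 2 was 0.503 for replicate 1 and 0.598 for replicate 3. With the 61 unlisted members ranked lowest, the median member stood at percentile 73.4 of the replicate 2 list, against 76.2 and 74.9 in replicates 1 and 3. The value for replicate 2 is over the 440 members of the first part, ranked among that list's peaks. Those for replicates 1 and 3 are over all 925 members, ranked among merged sites, where the rule gave every member a peak. A fold of 5 or more was reached in replicate 2 by 37.7% of the 440 members, 46.7% of the nearer hormone-only sites, 58% of sites with 1 or 2 EtOH peaks and 82.4% of persistent sites. At a few nearer hormone-only sites the replicate 2 fold equalled that of an adjacent stronger site. There 1 peak may have been counted at both, so the share of the nearer sites may be raised by their neighbours.

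Every library was then left out of the rule in turn and the sites made from the other 5 were looked up in its list, over the first part. Without 1,25D replicates 1, 2 and 3 there were 717, 440 and 490 isolated hormone-only sites, of which 52.7%, 86.1% and 77.3% had a peak in the list left out. Without EtOH replicates 1, 2 and 3 there were 375, 457 and 429, of which 8.27%, 19.7% and 14.2% had a peak there. All shares for 1,25D were above all shares for EtOH, at 72.1% ± 17.3 against 14.1% ± 5.72 (mean ± SD, n = 3 each), a difference of 58 percentage points (p = 0.1, exact permutation test, two-sided, which cannot go lower with 3 libraries against 3). The permutation exchanged only the finished shares and did not remake the sites. Each set of sites was made by treatment, from lists shared with the other sets, so this p cannot test the treatment. Over all sites made the same way, the share with a peak in the list left out was 6.95%, 7.86% and 8.04% for 1,25D and 3.54%, 6.09% and 4.61% for EtOH. The sites looked up in an EtOH list had to be in 3 1,25D lists, and those looked up in a 1,25D list in the other 2, so both sets were not chosen equally strictly. In each EtOH library, too, a larger share of the isolated hormone-only sites than of all sites had a peak. The lowest 1,25D value came from replicate 1, whose list had the stricter limit. With 1 highest p-value of 0.00431 for all lists, the shares were 54.3%, 84.9% and 76.9% for 1,25D and 8.38%, 20% and 13.7% for EtOH, and the difference was again 58 percentage points.

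**Figure D4:**
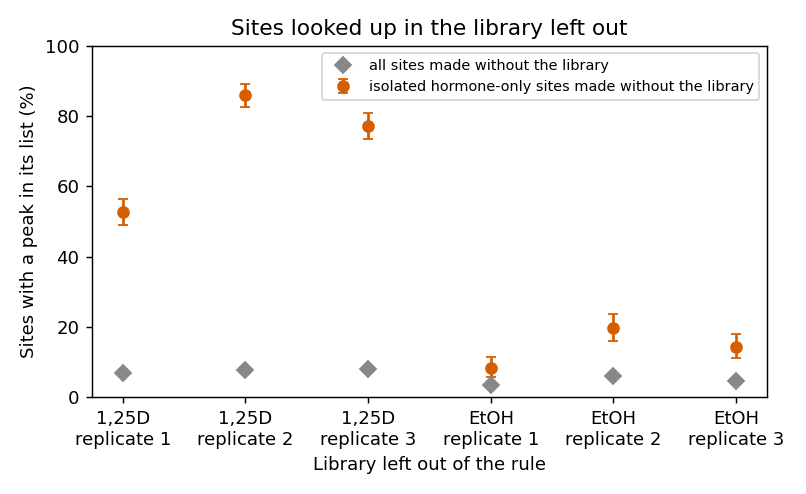
Share of sites with a peak in the list of the library left out (vertical axis, %) for each of the 6 libraries (horizontal axis), for isolated hormone-only sites made without it, with exact 95% binomial intervals, and for all sites made without it. The 1,25D libraries lie between 52.7% and 86.1%, and the EtOH libraries between 8.27% and 19.7%.

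EtOH peaks lay further from the members than from the classes set beside them. The nearest peak of any EtOH list was a median of 21.4 kb away, against 14 kb at the nearer hormone-only sites and 12.8 kb at sites of 1 1,25D list alone. It was within 1 kb of 62 members (6.7%), against 14% of the nearer hormone-only sites and 11.4% of the sites of 1 1,25D list. Within 5 kb the shares were 20.6%, 33.3% and 30%. By list, EtOH replicates 1, 2 and 3 had a peak within 5 kb of 5.41%, 12.9% and 7.03% of the members, following the number of peaks they held. At 98 members (10.6%) no EtOH peak lay within 100 kb, against 6.81% of the nearer hormone-only sites and 4.84% of the sites of 1 1,25D list. Of the 10 leading members, the one on chromosome 1 at 234658194 had an EtOH peak 0.247 kb away and the one on chromosome 11 had one at 0.777 kb, whereas those on chromosomes 20 and 12 at 34791864 and 4322495 had none within 86.1 and 76 kb. Whether such near peaks and the members are separate sites was not tested. EtOH peaks at the sites themselves were barred by the rule, and the nearer sites lie close to persistent ones by definition. Members were also kept over 200 kb from persistent sites, which hold EtOH peaks. Of the sites of 1 1,25D list, only 85.5% lay so far. These distances are therefore partly set by the rule and are a description.

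With members joined where their centres lay within 50 kb of each other, 767 of the 925 formed a group by themselves, 134 formed 67 pairs and 24 formed 8 groups of 3. The nearest other member was a median of 525 kb away, and over 1 Mb away at 310 members (33.5%). Within their own class, sites with 1 or 2 EtOH peaks had much the same spacing (524 kb and 33.1%) and persistent sites a wider one (828 kb and 43.1%). Such spacing also depends on how many sites a class holds, here 925, 927 and 612. Within 10 kb of another hormone-only site lay 7.57% of the members and 11.8% of the nearer hormone-only sites, and 4.31% of the sites with 1 or 2 EtOH peaks and 1.8% of the persistent sites lay as close to another of their own class. Isolation was measured from sites in all 5 lists only: a site with both 1,25D peaks and 1 or 2 EtOH peaks lay within 50 kb of 105 members (11.4%), within 10 kb of 43 and as near as 621 bp. The share within 50 kb was 19.7% for the nearer hormone-only sites.

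The 8 groups of 3 differed in height, and 4 are described here. On chromosome 1 a stretch of 7.05 kb held the leading member at 234658194 with others at 234651648, with folds of 5, 5.69 and 4.05 in 1,25D replicates 1 to 3, and at 234652908, with 5.88, 4.38 and 4.12. Between them, at 234654104 to 234654636, lay a site that is no member, with folds of 5.46, 6.02 and 5.47 in these replicates and a peak in 1 EtOH list. On chromosome 3 the leading member at 48595949 had a neighbour at 48597887, with folds of 6.28 and 3.63 in replicates 1 and 3, and another at 48546553, with 4.24 and 3.59. Chromosome 17 held members of near equal height at 16954846 and 16967110, with folds of 6.61 and 7.96 in replicate 1 and 7.04 and 8.48 in replicate 3, beside a weaker one at 16985977 (3.71 and 3.9). The tightest group spanned 1.45 kb of chromosome 1 from 46468288 to 46469736. Its members had folds of 4.25, 5.4 and 3.69 in replicate 1, 6.66, 3.8 and 3.8 in replicate 2 and 4.05, 3.57 and 2.68 in replicate 3. All 9 members of the groups of 3 that lay in the first part had a replicate 2 peak, against 86.1% of all members there. The members at 46469016 and 46469348 had the same replicate 2 fold of 3.8, and whether 1 peak covers both was not examined.

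Members occurred on each of the 18 chromosomes compared. Chromosome 1 held 137 members (14.8%), chromosome 2 held 107, chromosome 3 held 105 and chromosome 10 held 75. Chromosome 1 held 23.7% of all sites, so its share of members was lower than its share of sites. Its sites were unusually dense, at 12076 over 248 Mb against 5463 over 242 Mb on chromosome 2. By length it was not poor in members. Per 10 Mb of the stretch that the peaks span, the density of members was highest on chromosome 19 (5.66), chromosome 10 (5.55) and chromosome 1 (5.51), and lowest on chromosome 11 (2.97) and chromosome 18 (3.09). Persistent sites varied more, from 1.8 per 10 Mb on chromosome 18 to 5.31 on chromosome 19. The isolated share of the hormone-only sites was 61.5% on chromosome 22, 63.5% on chromosome 19 and 69.9% on chromosome 1, and 83.1% on chromosome 4, 87% on chromosome 17 and 88.6% on the start of chromosome 5. Over sites of any kind, the share that lay over 200 kb from a persistent site was 80%, 73.2%, 79.8%, 92.1%, 87.8% and 88.2% on these chromosomes. The isolated share was below this background on 17 of the 18 chromosomes and above it on chromosome 5 alone. The gap was widest on chromosome 22 (-18.5 percentage points, on 26 hormone-only sites) and chromosome 21 (-17.6, on 21 sites), and it was -9.86 on chromosome 1, which held the most.

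**Figure D5:**
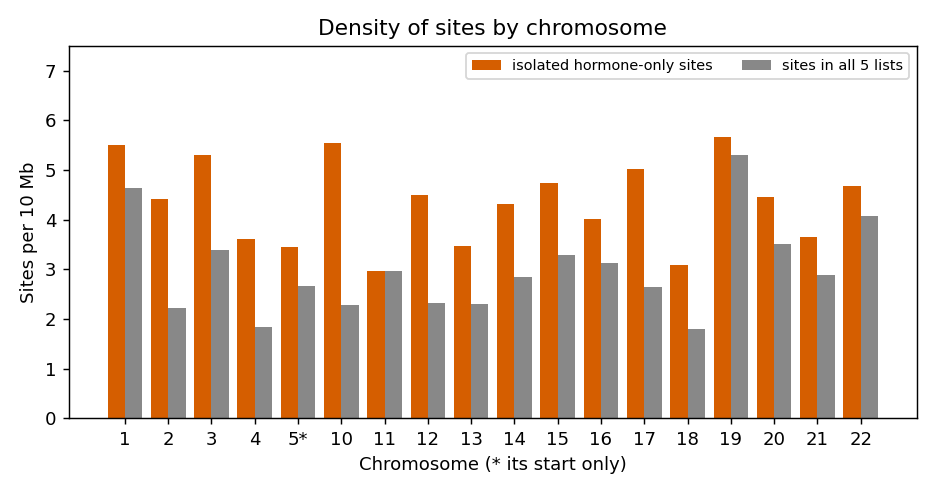
Number of isolated hormone-only sites and of persistent sites per 10 Mb of each chromosome (bars, vertical axis from 0), by chromosome along the horizontal axis, with chromosome 5 up to 90175161 only. The members range from 2.97 on chromosome 11 to 5.66 on chromosome 19, and the persistent sites from 1.8 on chromosome 18 to 5.31 on chromosome 19.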

How the data were processed

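Peak lists of 3 1,25D and 3 EtOH VDR ChIPmentation libraries from THP-1 cells were analysed. The input library was not analysed here. Bowtie 1.1, MACS2 and hg19 (GRCh37) are named by the submitters' processing notes, without settings. Each list belongs to 1 library. It holds, per the file headers, the authors' fold enrichment of each peak, a ratio over background, and the authors' p-value. The peak threshold, the use of the input and the removal of duplicates are each not given in the sources used here, and absence from a list means that a peak did not pass the caller's limit. Whether starts count from 0 or 1 is not stated. Lists that ended in mid-line lost that line, and 0 columns of other samples were used.

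Peaks were merged where they shared at least 1 bp, and a site took the strongest peak of each list for its fold. Percentiles are ranks within a list's sites, or its peaks for 1,25D replicate 2. The members and the comparisons were chosen with earlier results of these data known, and the members by values of the lists used, so most values carry no test. Named sites are the 10 members with the highest mean percentile, the 3 furthest from a persistent site, those next to the 200 kb limit and the weakest. The groups of 3, the members missing from replicate 2 and the comparison of libraries left out were chosen after the values were seen. Motifs and genes were planned only for a genome of the files' build, and were not analysed here. Merging and classing were tested on simulated lists, where 200 of 200 planted isolated sites and 60 of 60 nearer sites were recovered (282 and 78 called in all, of which 82 and 18 lay where only random peaks had been placed). Random peaks were kept off the planted sites, so full recovery checks the code only. The random calls give no rate for the real lists. Python 3.11.15, pandas 2.3.3 and scipy 1.17.1 were used.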

Additional observations from a re-analysis of the deposited data

How the results depend on the processing

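Alternatives covered the distance limit, the distance measure, the overlap, the peak threshold, the persistent class and each library. The number of isolated sites was 640 to 1087 under those other than leaving out a 1,25D library. The 640 came from dropping peaks under a fold of 5 from every list, EtOH lists included. They are largely other sites, since only 222 of the 925 members reached a fold of 5 in both 1,25D lists. The values below for peaks of fold 5 or more likewise come from lists cut in this way. It was 5271 and 6281 without 1,25D replicates 1 and 3, where 1 list alone makes a site. The values without 1 library each thus ran from 917 to 6281. The isolated share of the hormone-only sites was 84.4% at 100 kb, 60.6% at 500 kb, 90.9% with peaks of fold 5 or more and 67.8% with persistent sites taken from 2 of 3 EtOH lists, and 70.9% to 84.4% without 1 library. The share found in 1,25D replicate 2 was 89.4% with peaks of fold 5 or more and 15.4% to 86.4% without 1 library, the low values being those without a 1,25D replicate. The members' median fold, 4.68 as the mean of both lists, was 4.8 at 50% overlap, 4.76 with 1 highest p-value for all lists, 7.48 with peaks of fold 5 or more, 4.65 with persistent sites from 2 of 3 EtOH lists, 4.77 without chromosome 1, and 3.28 to 4.81 without 1 library. Requiring a replicate 2 peak left 376 sites in the first part. The difference between libraries left out of the rule was 57.8 to 74.5 percentage points under the other limits, overlaps and thresholds. It was 51 to 67.7 without 1 library's share in the means, although that library still took part in making the sites of the rest. The exact permutation p was 0.1 in each of these. With the replicate number as a block it was 58, with an exact sign-flip p of 0.25, the smallest for 3 pairs. Both tests used finished shares without remaking the sites, so neither p can test the treatment. The labels give only the replicate number, and presence over 2959 sites of 2 or more lists deviated together little between libraries of 1 number (r of 0.042, -0.009 and 0.031), so the block is not read as a pairing. With depth unknown, a site missing from a list cannot be told from one under its limit. Setting chromosome 1 aside was added after seeing the data.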
